A study of Mus musculus with 16 samples.

Results

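Runx2 is the transcription factor that commits mesenchymal progenitors to the osteoblast lineage, and several microRNAs have been reported to bind its transcript and hold that commitment back. A microRNA is a short RNA that guides a silencing complex to messenger RNAs, mainly by pairing of the seed near its 5′ end with a matching stretch of the target's 3′ untranslated region. Other microRNAs act on the same lineage through inhibitors of Wnt signalling, the pathway that drives bone formation, whose secreted antagonists include Sfrp2, the Dkk proteins and sclerostin, the product of Sost. The panel described here holds 9 of these microRNAs, chosen by name. mmu-miR-204-5p, mmu-miR-211-5p, mmu-miR-34c-5p, mmu-miR-135a-5p, mmu-miR-137-3p, mmu-miR-205-5p and mmu-miR-338-3p have been reported to target Runx2, mmu-miR-217-5p has been reported to target Runx2 and Dkk1, and mmu-miR-218-5p has been reported to target Sfrp2, Dkk2 and Sost. All 9 names were found among the 1915 mature microRNAs of the count table. Each had at least 1 count, as did 973 entries of the table in all. The prefix for mouse is left out below.

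The counts came from extracellular vesicles (EVs) of bone marrow plasma, taken from C57BL/6N mice aged 6 months. All 16 mice carried the CAGS-Snorkel reporter, and the vesicles were pulled down with an antibody to the HA tag. The reporter was combined with Ocn-Cre in 6 mice (Ocn below) and with Prx1-Cre in 10 mice (Prx1 below). Ocn-Cre is driven by the osteocalcin promoter, which is active in mature osteoblasts and osteocytes, and Prx1-Cre is active in the early limb mesenchyme and the cells that descend from it. Each group held equal numbers of male and female mice, but sex is not given per library. The Ocn libraries held 582660 to 1536421 counts and the Prx1 libraries 225273 to 813770 counts, so depth differed with the group (mean log10 total 5.94 ± 0.17 in the 6 Ocn libraries and 5.58 ± 0.16 in the 10 Prx1 libraries, with SD). The count table holds no library from mice without Cre, so no background capture level stands beside the values. In such samples, fewer vesicles from a cell type and less of a microRNA per vesicle cannot be told apart.

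Mature sequences of 8 of the 9 members were matched by name in RefSeq (build GRCm38.p6). They are shown because the seed, bases 2 to 8 and printed in capitals, defines which of them could act on the same sites.
miR-218-5p: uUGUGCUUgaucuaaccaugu
miR-338-3p: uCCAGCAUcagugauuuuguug
miR-204-5p: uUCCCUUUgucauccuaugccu
miR-211-5p: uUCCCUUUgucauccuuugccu
miR-205-5p: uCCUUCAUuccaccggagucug
miR-135a-5p: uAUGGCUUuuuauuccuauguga
miR-137-3p: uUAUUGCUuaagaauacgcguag
miR-217-5p: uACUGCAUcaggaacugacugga
Only miR-204-5p and miR-211-5p shared a seed among these 8. They differed at 1 of 22 bases, A17U from miR-204-5p to miR-211-5p, counted from the 5′ end. Whether the counting allowed a mismatch is not given in the sources used here, so counts of these microRNAs may be shared. No other pair of equal length came within 2 differences.

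The hairpins lie on several chromosomes of GRCm38. miR-218-5p comes from Mir218-1 (chr5:48223942-48224051, plus strand) and from Mir218-2 (chr11:35616816-35616925, plus strand), which lie in introns of the axon guidance genes Slit2 and Slit3. Mir338 (chr11:120014765-120014862, minus strand) lies in an intron of the kinase gene Aatk. Mir204 (chr19:22750605-22750672, plus strand) and Mir211 (chr7:64205806-64205911, plus strand) lie in introns of the related channel genes Trpm3 and Trpm1. Mir205 (chr1:193507463-193507530, minus strand) overlaps an exon of the long noncoding RNA 4631405K08Rik, and Mir137 (chr3:118433857-118433929, plus strand) overlaps an exon of the noncoding Gm26871. Mir217 (chr11:28763728-28763835, plus strand) lies in an intron of the long noncoding RNA Gm12082. miR-135a-5p comes from Mir135a-1 (chr9:106154124-106154213, plus strand) in an intron of the noncoding D030055H07Rik, where it also overlaps an exon of Glyctk on the opposite strand. Its other source is Mir135a-2 (chr10:92072086-92072185, minus strand), in an intron of the long noncoding RNA Rmst.

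The reported targets were searched for the complement of each seed, on the transcript strand, in the longest 3′ untranslated region that GENCODE M21 gives for each gene. In Runx2, with 3904 bases, 7 of the 8 members with a sequence had at least 1 match, 11 matches in all, with miR-204-5p and miR-211-5p counted at the same pair of sites. The exception was miR-135a-5p, whose AAGCCAT was not in this window. The first match of each seed is shown in capitals with the bases around them, as the letters to which the seed could pair.
Runx2, AAAGGGA for miR-204-5p and miR-211-5p (chr17:44607490-44607512, minus strand): atgtggtgcactcagAAAGGGAc
Runx2, ATGAAGG for miR-205-5p (chr17:44606819-44606841, minus strand): ttgttttcacgatgtATGAAGGa
Runx2, AGCAATA for miR-137-3p (chr17:44606752-44606774, minus strand): agctttgccttttaaAGCAATAa
Runx2, AAGCACA for miR-218-5p (chr17:44606570-44606592, minus strand): tcatattaaaaagccAAGCACAa
Runx2, ATGCTGG for miR-338-3p (chr17:44606663-44606685, minus strand): ctttactagcatgaaATGCTGGa
Runx2, ATGCAGT for miR-217-5p (chr17:44604403-44604425, minus strand): attgtttgctttttaATGCAGTa
Such matches are common in a window of this length. Runx2 was searched because it is a reported target, and such reports may rest on seed matches, so a match is not independent support. Among 1541 other genes with a 3′ untranslated region at least as long, the first 3904 bases held AAAGGGA in 37.4%, AAGCACA in 35.5%, ATGCTGG in 30.6%, ATGCAGT in 29.5%, ATGAAGG in 28.6% and AGCAATA in 25.8%. The unmatched AAGCCAT of miR-135a-5p was in 35.0% of the same windows. In Dkk1, the other reported target of miR-217-5p, ATGCAGT was not found in 1322 bases, a window in which 10.3% of other genes held it.

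The seed complement of miR-218-5p, AAGCACA, was found in each of its 3 reported Wnt inhibitor targets. Dkk2 held 3 matches in 2184 bases, Sfrp2 held 2 in 894 bases and Sost held 2 in 1388 bases. The share of other genes with at least 1 match in a window of the same length was 22.1% for Dkk2, 9.35% for Sfrp2 and 14.9% for Sost. The sequence was not found in Dkk1, and Runx2 also held 2 copies. The first match of each Wnt inhibitor is shown.
Dkk2 (chr3:132178345-132178367, plus strand): gctattattaaaagaAAGCACAc
Sfrp2 (chr3:83773491-83773513, plus strand): catttccggtttcccAAGCACAg
Sost (chr11:101962725-101962747, minus strand): gagcgtttgtaacagAAGCACAt
The Wnt inhibitors were likewise searched as reported targets, so the shares of other genes do not make these matches independent support. A match is a stretch of letters, and pairing was not measured in these samples.

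Together the 9 microRNAs made up 0.0493% of all counts, and miR-218-5p gave 71.0% of the panel's counts. Levels below are CPM, each count as parts per 1000000 of the library total. The summed level of the panel had a lowest value of 403 CPM, a median of 540 CPM and a highest value of 659 CPM in Ocn, against 382, 433 and 464 CPM in Prx1. In 5 of 6 Ocn libraries the sum lay above every Prx1 library. The mean was 542 ± 83.9 CPM in Ocn (SD, n = 6) and 429 ± 28.7 CPM in Prx1 (SD, n = 10). Without miR-218-5p the sum was 150.3 ± 38.7 CPM over the 6 Ocn libraries and 139 ± 31.2 CPM over the 10 Prx1 libraries (SD), a difference smaller than either SD. No test was made of a sum over members that were chosen by name with earlier results known.

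By mean CPM over the 16 libraries, miR-218-5p was the 102nd most abundant of the 973 entries, miR-338-3p the 164th, miR-204-5p the 187th and miR-34c-5p the 237th. These 4 were counted in every library. The others followed as miR-205-5p (rank 325), miR-135a-5p (rank 340), miR-137-3p (rank 428), miR-211-5p (rank 480) and miR-217-5p (rank 527). miR-218-5p stood clear of the rest in every library. Neighbours further down did not all separate: the Prx1 ranges of miR-338-3p (41.4 to 93.7 CPM) and miR-204-5p (17.8 to 98.6 CPM) overlapped, as did those of miR-205-5p (0 to 19.1 CPM) and miR-135a-5p (0 to 15.2 CPM). Adaptor ligation favours some sequences over others, so an order of counts need not be an order of molecules.

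**Figure D1:**
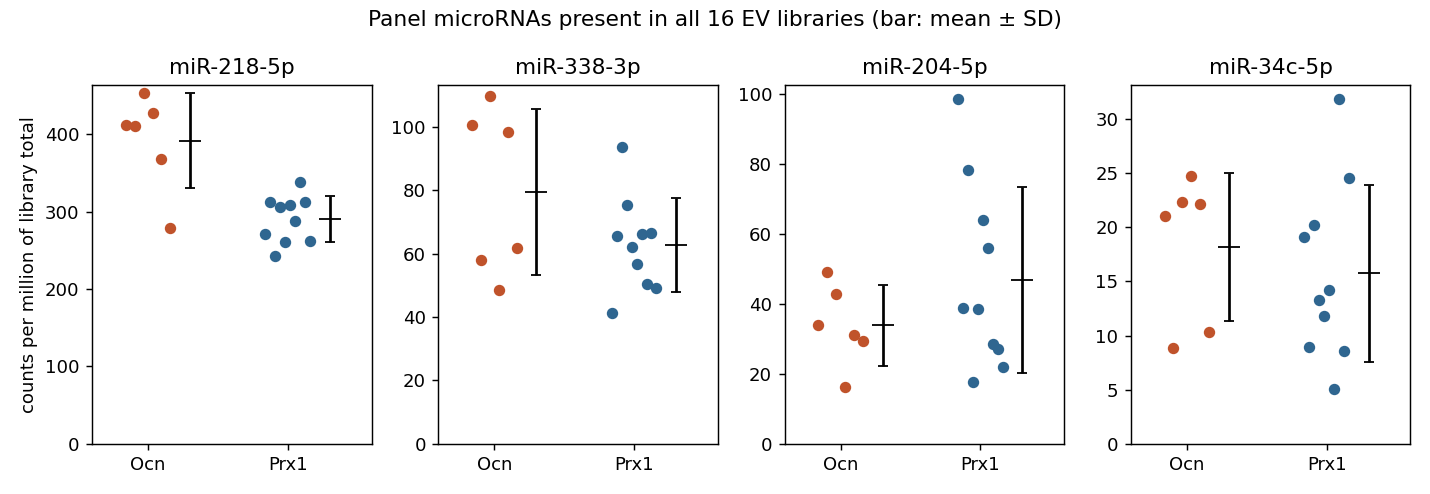
Counts scaled to the library total (CPM) for the 4 panel microRNAs counted in all 16 libraries, 1 point per mouse, Ocn left of Prx1, with the mean and SD as a bar beside the points. For miR-218-5p 5 of 6 Ocn points lie above all Prx1 points, while 3 of 6 Ocn points do so for miR-338-3p, 4 of 10 Prx1 points lie above all Ocn points for miR-204-5p, and the miR-34c-5p points overlap.

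miR-218-5p, reported in osteoblasts to act on Wnt inhibitors and so to favour bone formation, was higher in Ocn. Its lowest, median and highest values were 279, 411 and 453 CPM in Ocn, from 190 to 565 counts per library, against 243, 297 and 339 CPM in Prx1, from 69 to 254 counts per library. The Ocn libraries 1 to 5 lay above all 10 Prx1 libraries, while Ocn 6 held the lowest Ocn value and fell inside the Prx1 range, so the groups overlapped. The means were 392 ± 61.7 CPM in Ocn (SD, n = 6) and 290.2 ± 30.2 CPM in Prx1 (SD, n = 10). The log2 fold change of Ocn over Prx1 was 0.39 (SE 0.12, 95% interval 0.15 to 0.64), a 1.31-fold difference that passed the threshold (edgeR adjusted p = 0.0283). Of the 234 entries tested, 13.7% passed in either direction and 5.98% were called higher in Ocn, and 1 of the 4 tested panel members did so, which is too few to set against that share. The 32 calls split into 14 higher and 18 lower in Ocn, or 26 and 11 with upper quartile scaling, which moved the median log2 fold change of all entries to 0.13, against 0.01 with TMM. Relative to that median, miR-218-5p lay 0.38 above with TMM and 0.39 above with upper quartile scaling.

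The call for miR-218-5p depended on the fit and on single libraries. It was lost on leaving out Ocn 4, Prx1 1, Prx1 2, Prx1 3, Prx1 5 or Prx1 10 (edgeR adjusted p from 0.0551 to 0.0893), without a low-count filter (edgeR adjusted p = 0.104), and it was made in 8 of 20 draws that thinned every library to 225273 counts. Depth moved with the group. With depth (log10 of the total) in the model the log2 fold change was 0.34 (SE 0.19, edgeR adjusted p = 0.347). In the range of totals that both groups reach, miR-218-5p had 412 CPM in Ocn 1, 453 CPM in Ocn 3 and 279 CPM in Ocn 6, against 339 CPM in Prx1 8 and 312 CPM in Prx1 9. The log2 fold change over these 5 libraries was 0.17 (SE 0.25, edgeR adjusted p = 0.791). The coefficient of variation of its CPM was 15.7% within Ocn and 10.4% within Prx1. The variance of its counts was 6.99 times the Poisson value within Ocn and 1.37 times within Prx1, a ratio that also grows with the number of counts, which was higher in Ocn.

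**Figure D2:**
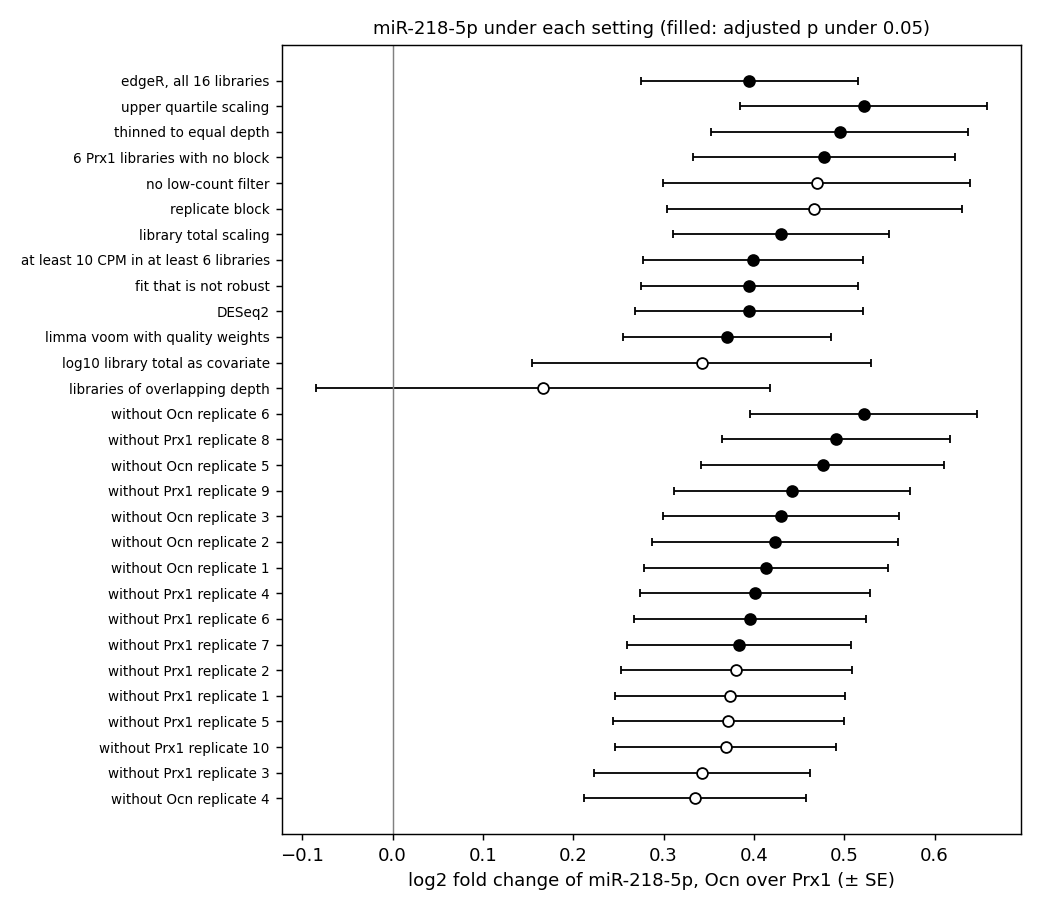
Log2 fold change of miR-218-5p, Ocn over Prx1, with its standard error, in the fit to all libraries (top), under 12 other settings and with each of the 16 libraries left out. Filled points have an adjusted p under 0.05, and all 29 estimates lie above 0, from 0.17 to 0.52.

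miR-338-3p, the product of the Aatk intron that is best known from oligodendrocytes and has been reported to lower Runx2 and Fgfr2 in bone cells, was second in abundance. It had 48.5, 80.0 and 109.8 CPM (lowest, median, highest) in Ocn, against 41.4, 63.9 and 93.7 CPM in Prx1. The Ocn values fell into an upper set (Ocn 1, 3 and 5, 98.3 CPM or more) and a lower set inside the Prx1 range. The means were 79.5 ± 26.3 CPM in Ocn (SD, n = 6) and 62.7 ± 14.8 CPM in Prx1 (SD, n = 10). The log2 fold change of 0.29 (SE 0.19, 95% interval -0.10 to 0.67) missed the threshold (edgeR adjusted p = 0.323). With depth in the model it was 0.42 (SE 0.28, edgeR adjusted p = 0.436). A draw thinned to equal depth gave 0.05 (SE 0.20, edgeR adjusted p = 0.893). The 5 libraries of overlapping depth gave 0.57 (SE 0.35, edgeR adjusted p = 0.549).

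miR-204-5p, which shares its seed with miR-211-5p and has been reported to shift mesenchymal progenitors from bone towards fat by acting on Runx2, had its highest values in Prx1. It had 16.2, 32.6 and 49.3 CPM (lowest, median, highest) in Ocn, against 17.8, 38.6 and 98.6 CPM in Prx1. In 4 Prx1 libraries (Prx1 1, 3, 6 and 7) it lay above every Ocn library, while the other 6 overlapped with Ocn. The means were 33.8 ± 11.5 CPM in Ocn (SD, n = 6) and 46.9 ± 26.6 CPM in Prx1 (SD, n = 10). The variance of its counts within Prx1 was 5.81 times the Poisson value, the largest of the 9 members in that group. The log2 fold change of -0.50 (SE 0.31, 95% interval -1.15 to 0.15) missed the threshold (edgeR adjusted p = 0.299). With depth in the model the log2 fold change was -0.07 (SE 0.49, edgeR adjusted p = 0.967). Over the 5 libraries of overlapping depth its sign turned, at 0.29 (SE 0.40, edgeR adjusted p = 0.791).

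**Figure D3:**
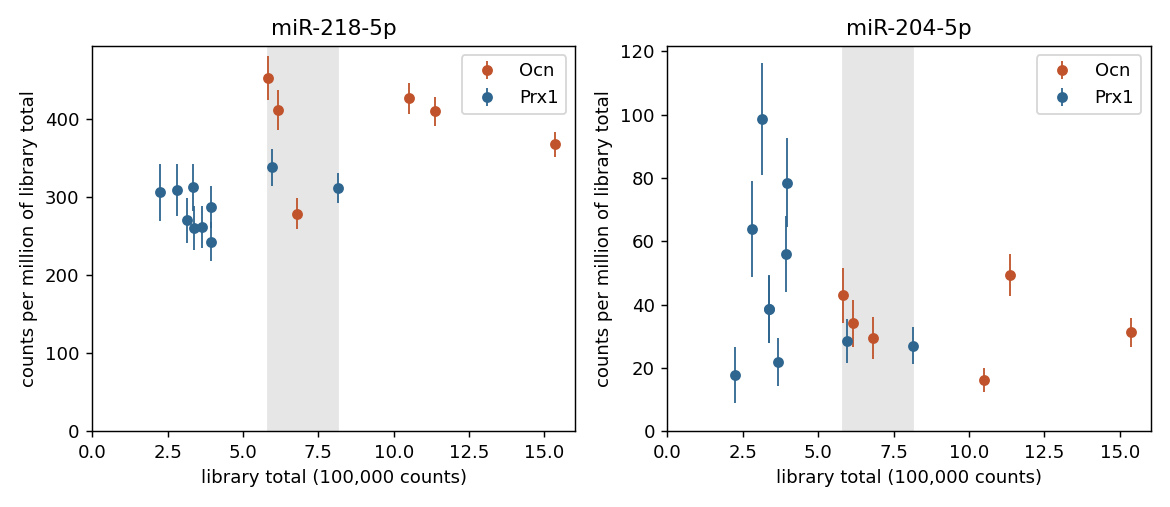
CPM of miR-218-5p (left) and miR-204-5p (right) against the library total, 1 point per library, with the square root of the count as error bar and the range of totals that both groups reach in grey. The 4 Prx1 libraries in which miR-204-5p lay above every Ocn library were among the 8 of 10 Prx1 libraries that held fewer counts than any Ocn library.

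miR-34c-5p, a member of the p53-induced miR-34 family reported to act on Runx2 and Notch signalling in osteoblasts, was the least abundant of the 4 members that passed the low-count filter. It had 8.80, 21.6 and 24.7 CPM (lowest, median, highest) in Ocn, against 5.08, 13.8 and 31.8 CPM in Prx1. Both the lowest and the highest values were in Prx1, and the groups overlapped. It averaged 18.2 ± 6.84 CPM in Ocn (SD, n = 6) and 15.8 ± 8.19 CPM in Prx1 (SD, n = 10). The log2 fold change was 0.15 (SE 0.33, 95% interval -0.54 to 0.84, edgeR adjusted p = 0.824), so that no difference was detectable at this depth. When single libraries were left out in turn, miR-34c-5p failed the filter 8 of 16 times.

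The remaining 5 members fell below the filter and were near the limit of detection. A count of 0 allows up to 3 counts of the library total, which is 1.95 to 5.15 CPM in Ocn and 3.69 to 13.3 CPM in Prx1. Levels over a whole group are therefore given as pooled CPM with exact 95% Poisson intervals, which cover counting error only. miR-205-5p, an epithelial microRNA reported to act on Runx2, was counted in 6 of 6 Ocn and 9 of 10 Prx1 libraries, at 6.60 CPM (4.65 to 9.10) in Ocn and 4.93 CPM (3.01 to 7.61) in Prx1. The highest library of each group, Ocn 3 with 18.9 CPM and Prx1 10 with 19.1 CPM, lay close together. miR-135a-5p was counted in 5 of 6 Ocn and 6 of 10 Prx1 libraries, at 5.71 CPM (3.91 to 8.06) in Ocn and 4.68 CPM (2.82 to 7.31) in Prx1. For both microRNAs the intervals of the groups overlapped.

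miR-137-3p, best known from neurons, was the only low member with a lower pooled level in Ocn, with 7 counts in 3 of 6 Ocn libraries and 15 counts in 5 of 10 Prx1 libraries. Its pooled level was 1.25 CPM (0.502 to 2.57) in Ocn and 3.70 CPM (2.07 to 6.09) in Prx1. The 5 Prx1 libraries that held it had 1 to 5 counts each, and 3 of them had under 3 counts, where the CPM of a single count, and so of any detected value, depends on depth. miR-217-5p, best known from the pancreas, had 11 counts in 4 of 6 Ocn libraries and 2 counts in 1 of 10 Prx1 libraries, or 1.96 CPM (0.980 to 3.51) in Ocn and 0.493 CPM (0.0597 to 1.78) in Prx1. miR-211-5p, best known from pigment cells, had 11 counts in 5 of 6 Ocn libraries and 3 counts in 2 of 10 Prx1 libraries, or 1.96 CPM (0.980 to 3.51) in Ocn and 0.739 CPM (0.152 to 2.16) in Prx1. Of the Ocn counts of miR-211-5p, 5 were in Ocn 6 alone. In a fit without a low-count filter, in which 2.77% of 973 entries passed (1.44% higher and 1.34% lower in Ocn), 0 of the 9 members passed. At an unadjusted p under 0.05 this fit held 149 of the 973 entries and 1 of the 9 members, miR-218-5p. The edgeR adjusted p of the 5 low members in this fit ran from 0.323 for miR-137-3p and miR-217-5p to 0.659 for miR-135a-5p. The log2 fold change there was 1.74 (SE 0.94) for miR-217-5p and 1.31 (SE 0.89) for miR-211-5p, each with 3 or fewer counts over all Prx1 libraries. It was -1.37 (SE 0.74) for miR-137-3p, 0.45 (SE 0.51) for miR-205-5p and 0.43 (SE 0.54) for miR-135a-5p. Single libraries moved these values by over 1.5 times, except that of miR-137-3p. With each library left out in turn, the log2 fold change ran from 1.47 to 3.39 for miR-217-5p, from 0.61 to 2.34 for miR-211-5p, from 0.05 to 0.93 for miR-205-5p and from 0.26 to 0.84 for miR-135a-5p, and from -1.90 to -1.01 for miR-137-3p.

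An Ocn library held on average 7.83 ± 1.17 of the 9 members (SD, n = 6) and a Prx1 library 6.30 ± 0.82 (SD, n = 10). At an equal depth of 225273 counts, computed from the hypergeometric distribution, 6.32 ± 0.56 members would be met in an Ocn library and 5.76 ± 0.55 in a Prx1 library, a smaller gap than as deposited. For miR-217-5p the expected number of libraries with a count fell to 2.12 of 6 in Ocn, against 0.477 of 10 in Prx1. For miR-211-5p it fell to 2.14 of 6 in Ocn, against 1.27 of 10 in Prx1, and for miR-137-3p to 1.19 of 6 in Ocn, against 4.38 of 10 in Prx1. These were descriptions of detection, with no test.

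**Figure D4:**
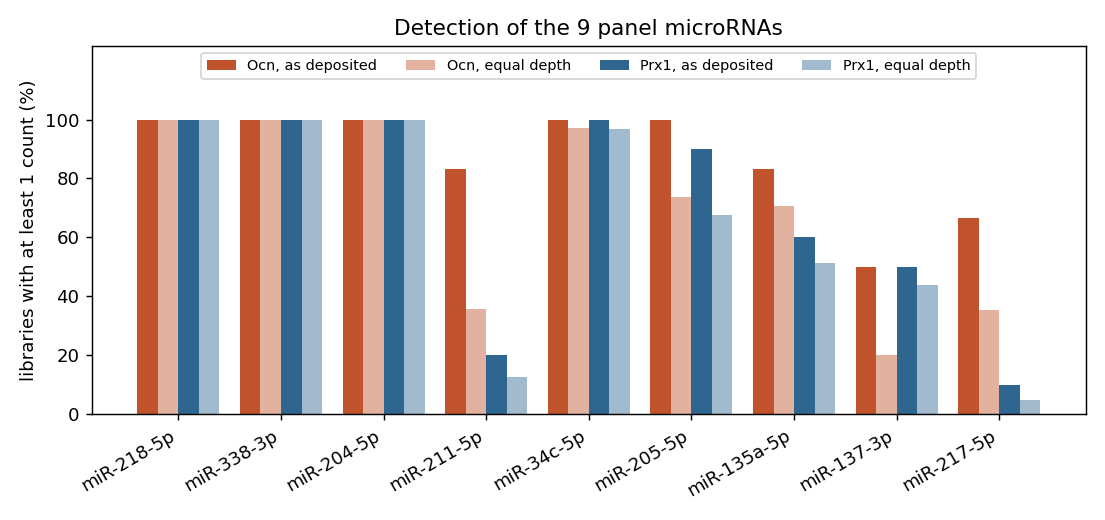
Share of libraries with at least 1 count of each panel microRNA, as deposited and as computed for equal depth, Ocn bars left of Prx1 bars. The 4 most abundant members were in all libraries of both groups, while miR-211-5p and miR-217-5p were in 5 and 4 of 6 Ocn libraries and in 2 and 1 of 10 Prx1 libraries as deposited.

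The other arm of each hairpin was nearly absent for most members. miR-218-5p had 3383 counts over all libraries, against 7 for miR-218-1-3p and 0 for miR-218-2-3p, miR-338-3p had 690 against 15 for miR-338-5p, and miR-204-5p had 366 against 3 for miR-204-3p. miR-34c-5p had 168 counts against 13 for miR-34c-3p. No count was found for miR-211-3p, miR-205-3p, miR-217-3p or miR-137-5p. miR-135a-5p stood out with 51 counts against 46 for miR-135a-1-3p, a share of 52.6% (exact 95% binomial interval 42.2% to 62.8%). The miR-135a-5p counts may come from both Mir135a-1 and Mir135a-2, so this is not the arm share of a single hairpin. miR-135a-1-3p was counted in 15 of 16 libraries, whereas miR-135a-2-3p had 0 counts.

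Of 10 other microRNAs reported to act on Runx2, from the miR-23, miR-30, miR-133 and miR-103 families, all were tested, 0 were higher in Ocn and 3 were lower, against 7.69% of all tested entries called lower. These were miR-30d-5p (-0.58, SE 0.13, edgeR adjusted p = 0.00478), miR-133a-3p (-0.68, SE 0.16, edgeR adjusted p = 0.00819) and miR-133b-3p (-0.96, SE 0.24, edgeR adjusted p = 0.0101), of which the miR-133 pair is near-identical and may share counts. The median log2 fold change of the 10 was -0.13, against 0.01 over all tested entries. The 10 summed to 29719 ± 3014 CPM in Ocn over 6 libraries and 34819 ± 4872 CPM in Prx1 over 10 (SD), so that by counts they far outweighed the 9 panel members.

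Several panel members are best known from tissues other than bone, and microRNAs of those tissues were counted beside them. All 6 epithelial microRNAs (the miR-200 family and miR-203-3p) were present, with a summed level of 258 to 463 CPM in Ocn and 232 to 360.3 CPM in Prx1, and 0 of the 3 tested passed with edgeR, with 0 at an unadjusted p under 0.05. Of the 3 below the filter, miR-200a-3p had a log2 fold change of 0.95 (SE 0.37) and miR-429-3p of 1.87 (SE 0.72) in the unfiltered fit, which missed the threshold (edgeR adjusted p = 0.134 for both), and miR-200b-3p had -0.44 (SE 0.51, edgeR adjusted p = 0.633). The 3 pancreatic microRNAs had 0 to 1.76 CPM in Ocn and 0 to 5.06 CPM in Prx1, with miR-216b-5p at 0 in every library. The 6 neural microRNAs had 750.4 to 898 CPM in Ocn and 635 to 947 CPM in Prx1. Most of this was miR-128-3p, with means of 643 of 797 CPM in Ocn and 685 of 773 CPM in Prx1. miR-124-3p, which defines neurons, was at 0 in every library, and 1 of the 3 tested, miR-219a-5p, was higher in Ocn (0.82, SE 0.20, edgeR adjusted p = 0.00981). Of the others tested, miR-128-3p had -0.12 (SE 0.12, edgeR adjusted p = 0.556) and miR-9-5p 0.38 (SE 0.23, edgeR adjusted p = 0.281). The 3 erythroid microRNAs had 11591 to 20691 CPM in Ocn and 15607 to 23278 CPM in Prx1, and 1 was lower in Ocn, miR-486a-5p (-0.38, SE 0.13, edgeR adjusted p = 0.0451). The other two had log2 fold changes of 0.58 (SE 0.20, edgeR adjusted p = 0.0569) for miR-144-3p and 0.22 (SE 0.18, edgeR adjusted p = 0.44) for miR-451a. Without a low-count filter the call of miR-486a-5p was lost (edgeR adjusted p = 0.206) and miR-144-3p was higher in Ocn (0.67, SE 0.16, edgeR adjusted p = 0.00315). A single call among 3 tested members of a list is too few to set against the shares of all 234 tested entries, 5.98% higher and 7.69% lower in Ocn. The part of these tissues in the panel's values was not tested.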

How the data were processed

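Per the labels' protocols, the QIAseq miRNA kit was used on 1 ng of RNA from each of 16 EV samples. The deposited table holds raw counts of mature microRNAs, 1 column per library, with no normalization by the authors. The unit was read from the values. Cutadapt 1.18 and the mm10 build are named in the submitters' processing notes. Not given in the sources used here are the aligner, the counter and any use of molecular identifiers. Intervals and floors cover counting error only.

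Groups follow the Cre driver in the library titles. CPM values use the library total. Ocn was tested against Prx1 over the whole table with the quasi-likelihood test of edgeR 4.0.16 in R 4.3.3 (filterByExpr by group, TMM, robust fit), p-values being adjusted over all 234 tested entries (Benjamini-Hochberg) and called under 0.05. Standard errors are the log2 fold change divided by the square root of F. DESeq2 1.42.0 and limma 3.58.1 (voom) were alternatives. Among 60 within-group pairs of libraries, the lowest chi-square divided by its degrees of freedom was 5.04, well above sampling noise. The members and lists were chosen with earlier results of these data known. The microRNAs named are all members, their other arms, lists of other Runx2-related and tissue microRNAs, and the 3 entries most like each tested member. Entries with the seed of 1 of the 8 members with a sequence are also named, where their own sequence was matched by name. Sequences are from RefSeq (GRCm38.p6) and GENCODE M21, the annotation of the mm10 assembly.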

Additional observations from a re-analysis of the deposited data

Results flagged for a closer look

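Of 12 sets of values checked for a library far from the others, 1 stood out by the gap to its nearest neighbour. The sets were the 4 tested members, the summed panel and the sum without miR-218-5p, each in both groups. Chance gives such a gap in about 1 in 20, a rate for 1 set and not for all 12, which share members. The sum of the panel without miR-218-5p was 217.7 CPM in Prx1 3, while the next highest Prx1 library, Prx1 1, had 162 CPM, a gap of 0.543 of the group's range. In Prx1 3, miR-338-3p had 93.7 CPM and miR-135a-5p 15.2 CPM, both the highest of the group, and miR-204-5p had 78.5 CPM, the second highest, while miR-218-5p had 243 CPM, the lowest of the group.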

How the results depend on the processing

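The panel's count of called members, 1 (miR-218-5p), was 0 with edgeR without a low-count filter, with the log10 library total as covariate, with the replicate block and over the 5 libraries of overlapping depth, and 0 to 1 over the 16 fits with a library left out, 10 of which kept it. At an unadjusted p under 0.05 those 4 settings counted 1 of 9, 0 of 4, 2 of 3 and 0 of 4 tested members. The matching numbers over all tested entries were 149 of 973, 40 of 234, 62 of 226 and 30 of 247. The count of called members was 1 under the other 8 settings, DESeq2 and voom included, 1 of which is a single thinned draw. Of 20 further draws, 8 made the call (edgeR adjusted p from 0.0133 to 0.254). Over all tested entries, 0 passed with edgeR with the depth covariate (40 at an unadjusted p under 0.05) and 0 over the libraries of overlapping depth (30 at an unadjusted p under 0.05), with 24 to 36 over the fits with a library left out and 32 with all libraries. Upper quartile scaling moved the median log2 fold change from 0.01 to 0.13 and gave 26 higher and 11 lower calls in place of 14 and 18. In the libraries of overlapping depth the log2 fold change of miR-204-5p was 0.29 and that of miR-34c-5p -0.20, both reversed; the cause was not tested. Same-numbered libraries did not pair (correlations of 0.02 to 0.20 over 6 pairs, 3 of them over 0.1, and 1 of 6 Ocn libraries closest to its own number). The replicate block, fitted on the 6 Ocn libraries and Prx1 1 to 6 only, gave 27 calls, and 0.47 (edgeR adjusted p = 0.0787) for miR-218-5p. With no block the same libraries gave 28 calls, and 0.48 (edgeR adjusted p = 0.0351) for miR-218-5p. Members per library were 6.17 in Ocn and 4.5 in Prx1 with at least 3 counts, 5.5 in Ocn and 3.9 in Prx1 with at least 5 counts, and 6.32 in Ocn at equal depth. Without miR-218-5p the summed level was 150.3 CPM for Ocn and 138.7 CPM for Prx1. With the shorter 6-base match, 8 members matched Runx2, and 48.1% to 81.2% of other windows of that length hold the 6-base sequences. The libraries of overlapping depth, the 6 Prx1 libraries with no block, the 20 thinned draws and the unfiltered fits with another scaling or a library left out were added after seeing the data. For the 5 members below the filter, no sign changed in the added unfiltered fits, though the sizes did.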

Other observations

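By Spearman's rho of log2 TMM-scaled CPM over the 16 libraries, among 233 other tested entries, the entries most like miR-218-5p were miR-181a-5p (0.74), miR-872-5p (0.74) and miR-181b-5p (0.69). Within Ocn and within Prx1 rho was 0.77 and 0.45 for miR-181a-5p, 0.20 and 0.66 for miR-872-5p, and 0.66 and 0.71 for miR-181b-5p. Both miR-181a-5p and miR-872-5p were themselves called higher in Ocn (edgeR adjusted p = 0.00125 and 0.0106). The entries most like miR-204-5p were miR-342-3p (0.84), miR-484 (0.74) and miR-92a-3p (0.73). miR-342-3p tracked miR-204-5p within both groups, with a rho of 0.77 in Ocn (n = 6) and 0.83 in Prx1 (n = 10). So did miR-484, with 0.89 in Ocn and 0.67 in Prx1, and miR-92a-3p, with 0.77 in Ocn and 0.68 in Prx1. Those most like miR-338-3p were miR-210-3p (0.76), miR-19a-3p (0.69) and miR-20a-5p (0.68), and those most like miR-34c-5p were miR-363-3p (0.61), miR-181a-1-3p (0.54) and miR-497a-5p (0.52). Within Ocn alone rho was as low as 0.37 for miR-20a-5p with miR-338-3p and 0.09 for miR-497a-5p with miR-34c-5p. The values over all 16 libraries are the highest of many, over libraries that differ in group and depth, and are given as a description with no test. The values within groups belong to entries picked by their values over these same libraries, and were not tested either.

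A further entry with the seed of miR-204-5p and miR-211-5p, miR-7670-3p, had 9 counts in 5 of 16 libraries, and miR-7002-3p, with the seed of miR-218-5p, had 0 counts. Beside the 366 counts of miR-204-5p and the 14 of miR-211-5p, these add little to either seed.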
